A study of Mus musculus with 16 samples.

Results

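The genes described here are Frmd5, Galnt9, Mettl7a1, Fam210b, Avp and Alk. They were chosen from earlier results of these data because regions near them held H3K27me3 peaks in more libraries of cells with dnTCF4 than of control cells. They are 6 of 21627 protein-coding genes annotated on an autosome or the X chromosome. The peaks that chose them are also the measurement reported here, so every difference between the groups is given as a description, without a test. Each locus is the gene body extended by 40 kb on both sides in the mouse build mm10, and a peak belongs to a locus when it overlaps it by at least 1 base.

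Both groups were CCN6KOT cells, primary cells of a mouse breast tumour in which the CCN6 gene is knocked out and whose condition the labels give as spindle metaplastic. Control cells carried a control lentivirus, PPGS in the library titles, and the others carried a lentivirus with the DNTCF4 construct, written dnTCF4 in the titles, a dominant negative form of a TCF transcription factor. Both were grown in DMEM/F12 with serum and selected with puromycin, and the promoter of the construct is not given in the sources used here. H3K27me3 was mapped by ChIPmentation in 4 control and 4 dnTCF4 libraries (the series also has 8 IgG libraries, not used here). All libraries come from 1 cell line, and nothing in the labels says that libraries of a group came from separate cultures, so their spread may be technical. Peak lists hold no expression, so neither the cell type nor the loss of CCN6 could be checked against marker genes.

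The authors deposited 1 peak list per library, and the lists differed widely in length within both groups. Control libraries 1 to 4 held 426, 738, 54070 and 22745 peaks, and dnTCF4 libraries 1 to 4 held 21492, 191, 4885 and 1838. The long lists therefore lie in both groups, with control 3 the longest and dnTCF4 2 the shortest. The sequencing depth is unknown, and a missing peak does not show that the mark was missing.

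H3K27me3 is the trimethylation of histone H3 at lysine 27. It is written by EZH2, the catalytic subunit of Polycomb repressive complex 2, and marks genes that are kept silent, often over CpG-rich promoters of developmental genes. Beta-catenin acts in the nucleus through TCF/LEF factors, and a dominant negative TCF occupies their DNA sites without recruiting beta-catenin. The series was designed to ask how EZH2 modulates the epigenetics of these metaplastic tumour cells, with dnTCF4 as the block of beta-catenin signalling.

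The gene starts are shown first because the peaks that set the groups apart at Frmd5, Galnt9 and Mettl7a1 lie beside them, and Avp is shown as the locus with no control peak. The sequences are the 250 bases before each gene start, taken from the RefSeq promoter table of GRCm38.p6, the same build as mm10, in which all 6 members matched. Capitals mark each CG dinucleotide.
Frmd5, chr2:121807058-121807307, minus strand: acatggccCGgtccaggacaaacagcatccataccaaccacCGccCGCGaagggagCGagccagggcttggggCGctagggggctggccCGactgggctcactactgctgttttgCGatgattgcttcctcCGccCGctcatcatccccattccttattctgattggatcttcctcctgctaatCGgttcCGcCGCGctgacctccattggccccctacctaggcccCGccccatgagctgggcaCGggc
Galnt9, chr5:110544105-110544354, plus strand: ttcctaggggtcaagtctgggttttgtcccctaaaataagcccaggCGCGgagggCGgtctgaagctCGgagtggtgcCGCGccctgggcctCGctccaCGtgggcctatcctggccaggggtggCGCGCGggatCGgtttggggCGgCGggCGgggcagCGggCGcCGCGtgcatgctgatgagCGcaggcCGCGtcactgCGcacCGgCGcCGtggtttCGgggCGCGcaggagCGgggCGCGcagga
Mettl7a1, chr15:100304567-100304816, plus strand: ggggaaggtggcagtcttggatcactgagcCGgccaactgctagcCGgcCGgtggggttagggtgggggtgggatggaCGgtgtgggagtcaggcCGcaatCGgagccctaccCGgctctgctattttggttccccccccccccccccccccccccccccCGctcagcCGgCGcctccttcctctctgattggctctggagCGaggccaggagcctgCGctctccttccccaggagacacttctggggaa
Avp, chr2:130582589-130582838, minus strand: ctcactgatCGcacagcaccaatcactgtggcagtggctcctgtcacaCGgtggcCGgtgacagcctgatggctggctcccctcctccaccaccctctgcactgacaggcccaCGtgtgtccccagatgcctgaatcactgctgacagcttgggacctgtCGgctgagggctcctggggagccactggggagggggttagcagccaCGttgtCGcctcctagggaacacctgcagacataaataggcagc

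The members' promoters ranged from rich to average in CG. Over the 300 bases from 250 before to 50 after the gene start, Galnt9 had 41 CG dinucleotides, Alk 28, Fam210b 24, Frmd5 19, Mettl7a1 15 and Avp 8, against a median of 7 over 32851 promoters of the same length. Galnt9 had more than 96.5% of all promoters and Avp more than 51.4%, so Avp is near the middle of the range. Galnt9 has a further start in the table, inside the gene, with 2 CG dinucleotides. The TCF/LEF motif CTTTGAT, searched on both strands, was in none of the members' windows, and 3.73% of all promoters hold it. No library had a peak that overlapped any of these windows. The closest was a peak of dnTCF4 1 at 0.183 kb from the Galnt9 window.

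Over whole loci, 4 of the 6 members had peaks in more dnTCF4 than control libraries. Galnt9 had peaks in 1 control and 4 dnTCF4 libraries, Fam210b in 1 and 3, Avp in 0 and 2, and Frmd5 in 2 and 3. The data go against the reason for choosing Mettl7a1 and Alk at this scale, since both had peaks in 4 control and 3 dnTCF4 libraries. The dnTCF4 library without a peak at either was dnTCF4 2, the shortest list, and with it left out every remaining library had a peak at both. Among all 21627 genes, 6.6% had peaks in more dnTCF4 than control libraries and 31.4% the reverse, and since the members were chosen on this contrast nothing is read from their share. At the edge of the rule, Frmd5 lies just inside with a difference of 1 library and Mettl7a1 and Alk lie outside with -1. The 6 loci are described below with the intracellular proteins first, then the hormone and the receptor.

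**Figure D1:**
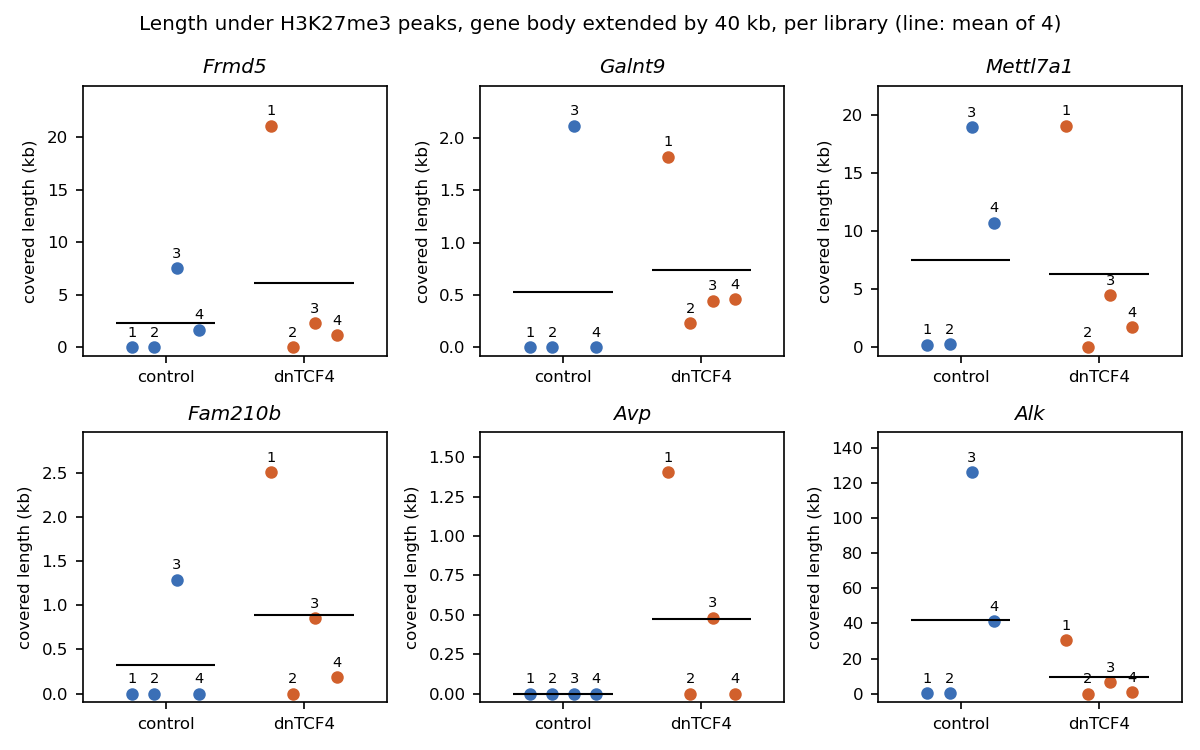
Length under H3K27me3 peaks (kb, vertical axis) at each of the 6 loci in every library, numbered 1 to 4 within control (blue) and dnTCF4 (orange), with a line at each group's mean. Avp has no control point above 0, dnTCF4 1 stands highest at Frmd5 with 21.1 kb, and control 3 stands highest at Alk with 126.3 kb.

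Frmd5 encodes a FERM-domain protein found at the cell membrane and at cell contacts. Its gene body lies on the minus strand at chr2:121545529-121807087. Peaks covered 0, 0, 7.52 and 1.65 kb in control libraries 1 to 4 and 21.1, 0, 2.29 and 1.10 kb in dnTCF4 libraries 1 to 4. The groups overlap, and the dnTCF4 mean of 6.12 ± 10.0 kb (SD, n = 4) against 2.29 ± 3.57 kb in control rests on dnTCF4 1. Control lists gave 16 peaks here and dnTCF4 lists 28. Merging overlapping peaks of all libraries gave 22 regions, of which 12 had more dnTCF4 than control libraries, 6 had more control libraries and 4 had equal numbers. Over the whole genome 8.27% of 61441 merged regions had more dnTCF4 libraries and 78.9% more control libraries.

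At Frmd5, 3 regions differed by at least 2 libraries, and a pair of them flank its start. A region at chr2:121807912-121810292, 0.824 kb upstream of the gene body, had a peak in dnTCF4 1, 3 and 4 and in no control library. The peak was 2381 bp wide with a fold enrichment over background of 3.75 in dnTCF4 1, 420 bp and 3.86 in dnTCF4 3, and 518 bp and 4.31 in dnTCF4 4. These folds are the authors' values per peak and are read only within a list. Control 3 had its nearest peak 2.76 kb away and control 4 2.90 kb away, so the start was not free of control peaks. Just inside the gene, chr2:121802789-121805962 held peaks of the long control lists, 3 and 4, and of dnTCF4 1 and 3, an equal count. The next region, chr2:121800243-121801756, had peaks in dnTCF4 1, 3 and 4 and in 1 control library, control 4.

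A region deeper in the gene body of Frmd5, chr2:121769480-121769917, also had peaks in dnTCF4 1, 3 and 4 and in no control library. It is 438 bp wide and lies 37.1 to 37.6 kb from the start. Its peak in dnTCF4 1 had a fold of 4.41 and a −log10 q of 3.69, and 98.5% of that list's peaks had a lower −log10 q. The same region ranked far lower in dnTCF4 3, where 6.51% of peaks were below it. Both long control lists had their nearest peaks over 9 kb away, at 9.58 kb in control 3 and 9.61 kb in control 4. The protein-coding neighbours Mfap1a and Wdr76 had no peak in any library.

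**Figure D2:**
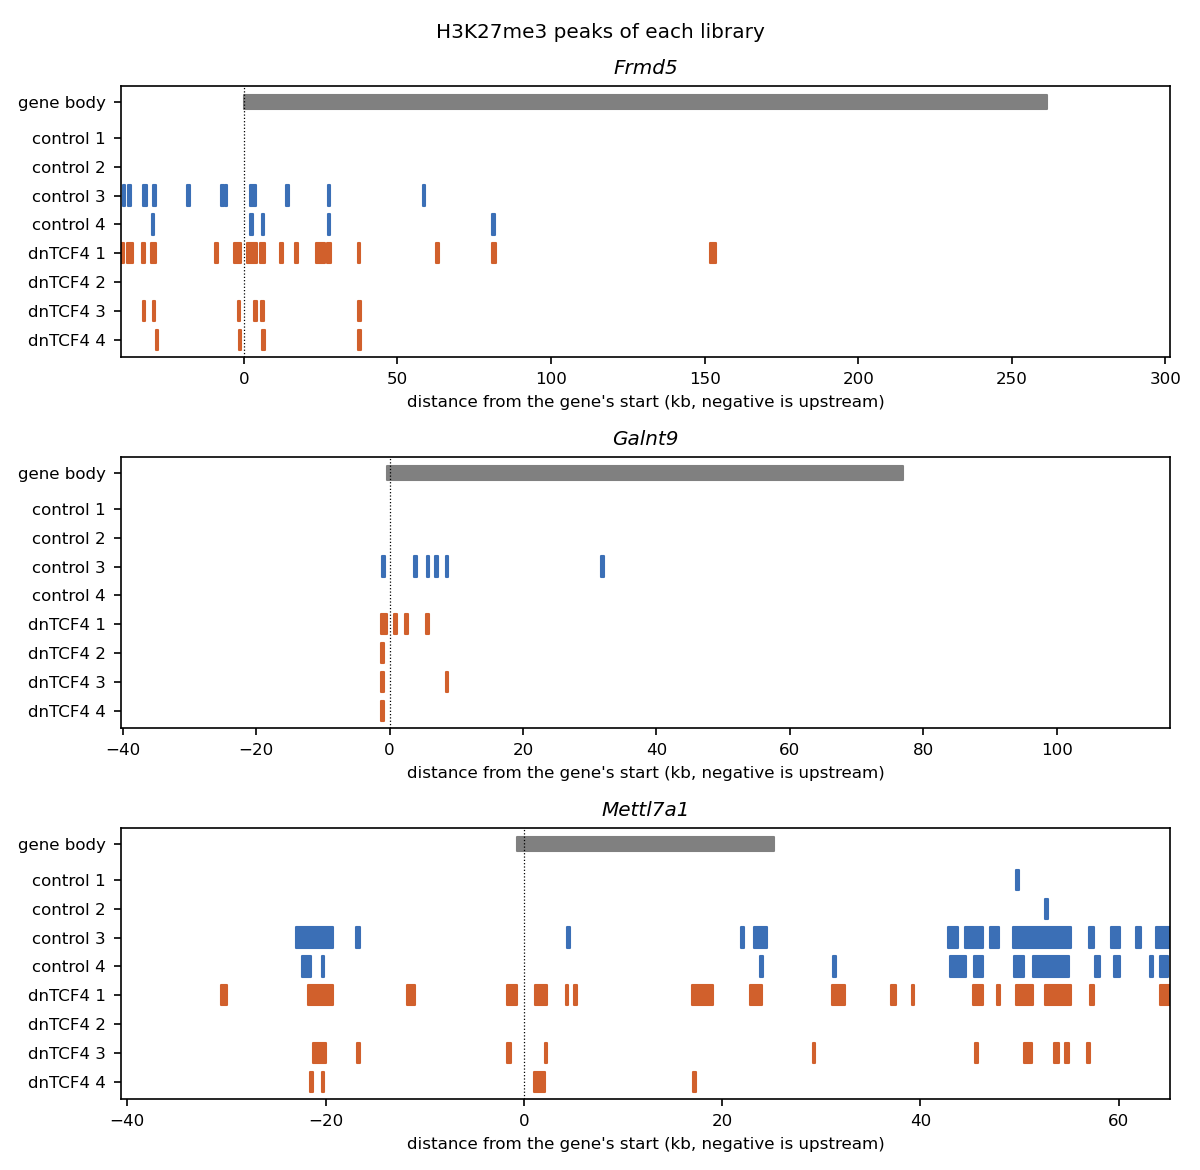
Position of every peak (blocks) by library at Frmd5, Galnt9 and Mettl7a1, as distance from the gene's start in kb, negative upstream. The gene body is in grey, control in blue and dnTCF4 in orange. Blocks have a minimum drawn width that grows with the window, so short peaks look wider than they are, most of all at Frmd5. The block just upstream of Galnt9 recurs in all 4 dnTCF4 libraries and in control 3, while Mettl7a1 has dnTCF4 blocks on both sides of its start, and its blocks of control 1 and 2 lie downstream of the gene.

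Galnt9 encodes a polypeptide GalNAc-transferase, an enzyme of the Golgi that starts mucin-type O-glycans on proteins. Its gene body lies on the plus strand at chr5:110544032-110621383. Peaks covered 0, 0, 2.12 and 0 kb in control libraries 1 to 4 and 1.82, 0.23, 0.444 and 0.457 kb in dnTCF4 libraries 1 to 4. Every dnTCF4 library had a peak and 3 of 4 control libraries had none, but the highest value was that of control 3. The mean covered length was 0.738 ± 0.729 kb with dnTCF4 and 0.529 ± 1.06 kb in control (SD, n = 4), so the groups overlap in length although they differ in the count of libraries.

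The count at Galnt9 comes from a single region beside its start, chr5:110543061-110543921, which is 861 bp wide and ends 0.11 kb before the gene body. Peaks there were 847 bp wide in dnTCF4 1, 230 bp in dnTCF4 2, 216 bp in dnTCF4 3, 457 bp in dnTCF4 4 and 452 bp in control 3. Within their own lists these peaks stood high in 4 libraries. A lower −log10 q was found for 98.5% of the peaks of dnTCF4 1, 91.2% of dnTCF4 3, 89.6% of dnTCF4 4 and 88.7% of control 3, and for 25.1% of the short list of dnTCF4 2. The authors' fold was 4.08, 4.97, 4.20 and 5.46 in dnTCF4 1 to 4 and 3.13 in control 3. Control 4, whose list is longer than that of any dnTCF4 library, had its nearest peak 433.7 kb away.

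The other regions of Galnt9 did not share that pattern. Of its 8 regions, 3 had more dnTCF4 libraries, 3 had more control libraries and 2 had equal numbers. Inside the gene body, control 3 had peaks from chr5:110548068-110548465 to chr5:110576092-110576350, and dnTCF4 1 had peaks of its own at chr5:110545008-110545514 and chr5:110546669-110546960. A peak of dnTCF4 1 also met one of control 3 at chr5:110549879-110550260, and a peak of dnTCF4 3 met one at chr5:110552759-110552986, so the groups were not separated by position inside the gene. The protein-coding neighbours Noc4l and Ddx51 had no peak.

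Mettl7a1 encodes a methyltransferase-like protein of the endoplasmic reticulum and lipid droplets. Its gene body lies on the plus strand at chr15:100304145-100330001. Peaks covered 0.187, 0.237, 18.98 and 10.7 kb in control libraries 1 to 4 and 19.1, 0, 4.47 and 1.71 kb in dnTCF4 libraries 1 to 4. The groups overlap, with means of 7.54 ± 9.10 kb in control and 6.32 ± 8.71 kb with dnTCF4 (SD, n = 4). The highest control and the highest dnTCF4 library nearly coincide.

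The dnTCF4 peaks that set the groups apart at Mettl7a1 lie mainly near its start. There, chr15:100305839-100307152 had peaks in dnTCF4 1, 3 and 4 and in no control library, and chr15:100303118-100304129, which ends 0.015 kb before the gene body, had peaks in dnTCF4 1 and 3. The peaks of the former were 1196, 207 and 1078 bp wide with folds of 3.57, 4.33 and 4.65 in dnTCF4 1, 3 and 4. Their −log10 q was 1.65, 1.85 and 1.71, all below 2. Control 3 had its nearest peak 2.05 kb from that region and control 4 21.2 kb away. Further into the gene, chr15:100321737-100323894 had peaks in dnTCF4 1 and 4, the former 2158 bp wide with a −log10 q above that of 94.5% of its list. Restricted to the gene body, Mettl7a1 had peaks in more dnTCF4 than control libraries, by 25.0 percentage points, where the 40 kb window gave -25.0.

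Downstream of Mettl7a1, 13 regions were mixed, with more control libraries in 6, more dnTCF4 libraries in 4 and equal numbers in 3. A region over the paralog Mettl7a2, chr15:100354142-100360040, had peaks in all 4 control libraries and in dnTCF4 1 and 3, and it held the only peaks of control 1 and control 2 at the locus. Mettl7a1, Mettl7a2 and Mettl7a3 lie side by side and are close paralogs, so reads could be split among them and the peaks of each are uncertain. Upstream, Tmprss12, a transmembrane serine protease gene, had peaks in its body in 2 control libraries, 3 and 4, and in dnTCF4 1, 3 and 4. Of the other neighbours, Mettl7a3 and Higd1c had peaks in 2 control libraries and 1 dnTCF4 library each, and Methig1, whose annotation overlaps both Mettl7a2 and Higd1c, had them in 4 and 2. In all, 24 regions lay at the Mettl7a1 locus, 11 with more dnTCF4 libraries, 8 with more control libraries and 5 equal.

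Fam210b encodes a mitochondrial membrane protein. Its gene body lies on the plus strand at chr2:172345570-172355749. Peaks covered 0, 0, 1.29 and 0 kb in control libraries 1 to 4 and 2.50, 0, 0.855 and 0.188 kb in dnTCF4 libraries 1 to 4. The group means were 0.322 ± 0.645 kb and 0.887 ± 1.14 kb (SD, n = 4), and control 3 lies within the dnTCF4 range. No peak fell inside the gene body or within 10 kb of it in any library.

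The dnTCF4 peaks counted for Fam210b lie upstream of it, between 14.8 kb from the gene body and the end of the window, and control 3 had peaks on both sides. A region at chr2:172311120-172312404, 33.2 kb from the gene body, had peaks in dnTCF4 1, 3 and 4 and in no control library. These were 1285, 369 and 188 bp wide with folds of 3.61, 4.44 and 4.55. The −log10 q was above that of 91.7% of peaks in dnTCF4 1, 92.2% in dnTCF4 3 and 64.0% in dnTCF4 4, so the region ranked in the upper part of 3 lists of very different length. A second region 31.6 kb from the gene, chr2:172313479-172313979, had peaks in dnTCF4 1 and 3. Control 3 had peaks at 4 other places of the locus, the nearest 3.38 kb from the former region, and control 4 had its nearest peak 120.6 kb away. The neighbours Aurka, a mitotic kinase gene, and Cstf1, an mRNA cleavage factor gene, had no peak, and Cass4, an adhesion scaffold gene, had peaks in its body in 2 control and 3 dnTCF4 libraries.

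**Figure D3:**
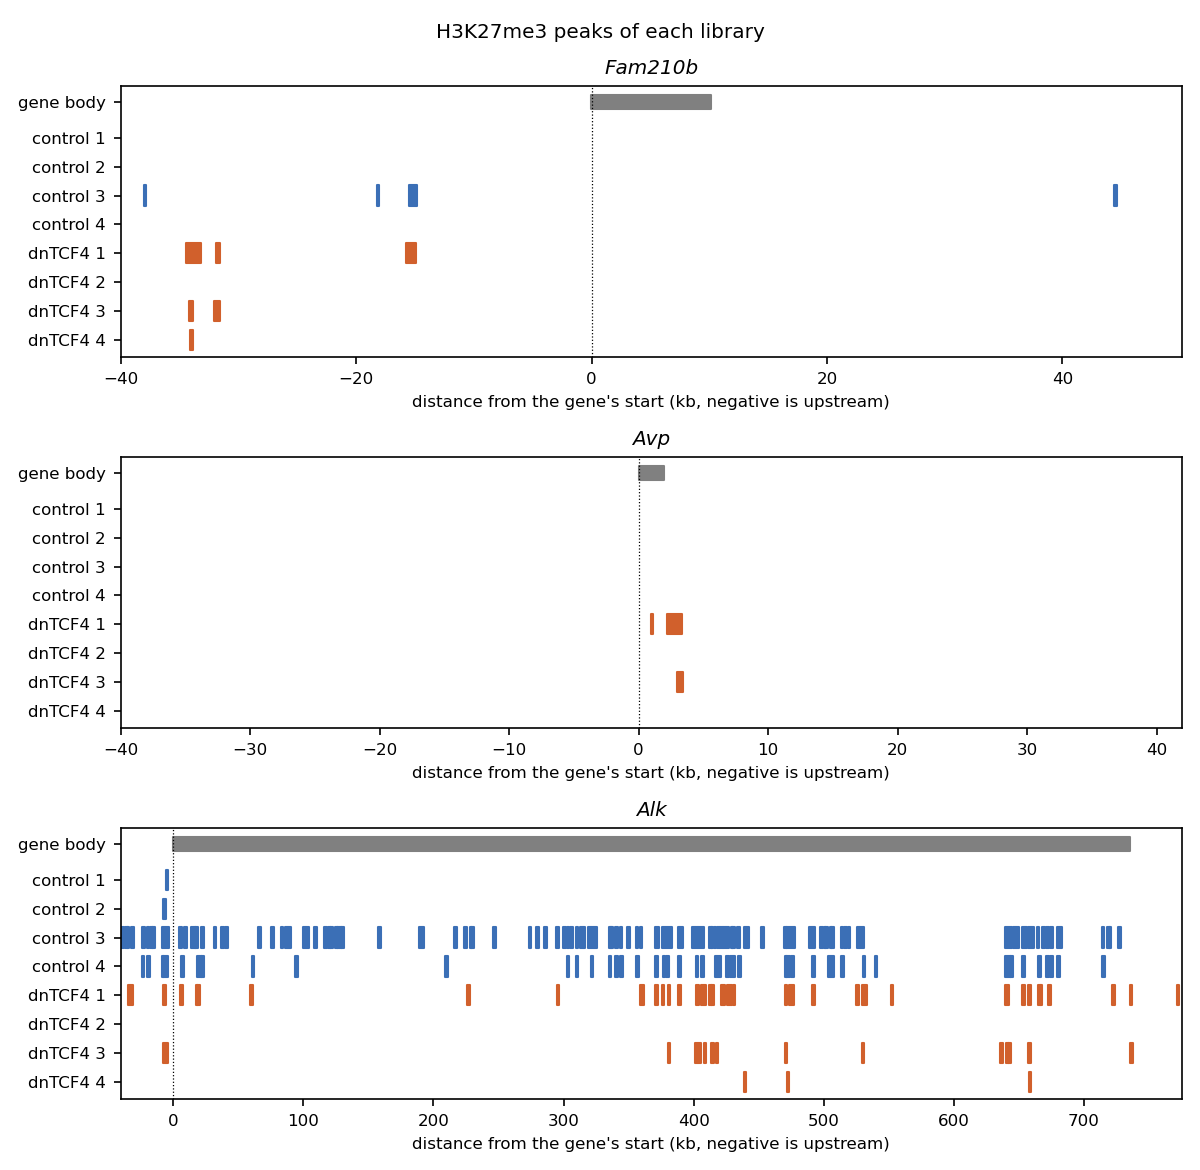
Position of every peak (blocks) by library at Fam210b, Avp and Alk, as distance from the gene's start in kb, negative upstream. The gene body is in grey, control in blue and dnTCF4 in orange. Blocks have a minimum drawn width that grows with the window, so short peaks look much wider than they are at Alk. Avp has blocks in dnTCF4 1 and 3 alone, and Alk has blocks throughout its body, most of them in control 3.

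Avp encodes the precursor of vasopressin, the antidiuretic hormone made by neurons of the hypothalamus. Its gene body lies on the minus strand at chr2:130580620-130582588, beside Oxt, the oxytocin gene. No control library had a peak within 40 kb, and dnTCF4 libraries 1 to 4 had 1.41, 0, 0.483 and 0 kb under peaks, from 2, 0, 1 and 0 peaks. Among all genes, 0.143% had peaks in at least 2 dnTCF4 libraries and no control library, a group to which Avp belongs by choice. The groups overlap, since dnTCF4 2 and 4 were at 0 like the controls.

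Peaks of both libraries met in a region between Avp and Oxt, chr2:130579149-130580423, 0.196 kb past the end of Avp. The peak was 1225 bp wide with a fold of 3.61 in dnTCF4 1 and 483 bp with a fold of 3.85 in dnTCF4 3. Their −log10 q was 1.41 and 1.31, above that of 56.7% and 15.0% of the peaks of those lists. With peaks below a −log10 q of 2 left out, no library had a peak at Avp. A further peak of dnTCF4 1 lay in the gene body at chr2:130581482-130581661. Control 3 and control 4 both had their nearest peaks 193.1 kb away, so the surroundings of Avp were empty in the long control lists too. Oxt holds the same peaks within 40 kb and so repeats the count of Avp. The neighbours Ptpra, Mrps26, Oxt, Ubox5 and Fastkd5 had no peak in their bodies.

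Alk encodes anaplastic lymphoma kinase, a receptor tyrosine kinase of the developing nervous system. Its gene body lies on the minus strand at chr17:71868988-72604702 and is the longest of the 6. Peaks covered 0.242, 0.25, 126.3 and 41.2 kb in control libraries 1 to 4 and 30.6, 0, 6.52 and 0.634 kb in dnTCF4 libraries 1 to 4. The control mean of 42.0 ± 59.4 kb against 9.43 ± 14.4 kb with dnTCF4 (SD, n = 4) is led by control 3, and the groups overlap. As a share of all peaks in the list, the locus took 0.207% in control 3, 0.215% in control 4 and 0.195% in dnTCF4 1, close values for the 3 longest lists.

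Of the 124 regions of Alk, 99 (79.8%) had more control libraries, 9 (7.26%) had more dnTCF4 libraries and 16 had equal numbers. These shares are close to those over all merged regions, 78.9% and 8.27%, so the lean to control is not a result about Alk. A pair of regions had 2 more dnTCF4 than control libraries. At the 3′ end of the gene, chr17:71867891-71869253 had peaks in dnTCF4 1 and 3, 743 and 1000 bp wide, and in no control library, with the nearest peak of control 3 7.16 kb away. In the body, chr17:71945679-71947194 had peaks in dnTCF4 1, 3 and 4 and in control 3. There the control peak was the widest, 1516 bp against 192, 160 and 160 bp, and its −log10 q was above that of 95.1% of its list, beside 84.7%, 95.5% and 76.9% in dnTCF4 1, 3 and 4.

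Upstream of the Alk start the order is the reverse. A region at chr17:72607285-72613315, 2.58 kb before the gene body, had peaks in all 4 control libraries and in dnTCF4 1 and 3, and it held the single peak of control 1 and of control 2 at the locus. In the gene body alone, which leaves this region out, Alk had peaks in 25.0 percentage points more dnTCF4 than control libraries. The protein-coding neighbour Clip4 had peaks in its body in 1 control and 3 dnTCF4 libraries.

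The lists were cut to equal length to see what remains when no library has more peaks than another. With the 4 longest lists cut to 4885 peaks each, highest −log10 p first, Frmd5 had no peak in the control lists, 3 and 4, and 5 and 6 peaks in dnTCF4 1 and 3. In the same order of lists, Galnt9 had 1, 0, 1 and 2, Fam210b 0, 0, 1 and 2, and Avp 0, 0, 0 and 1. Mettl7a1 had 1, 2, 5 and 10 peaks, and Alk 7, 7, 8 and 15. The list of dnTCF4 3, with 4885 peaks, is not shortened by this cut. Since the loci were chosen on this contrast, nothing is read from these counts. In these cut lists 7.6% of all genes had peaks in more dnTCF4 than control libraries. Covered length did not follow the number of peaks at Mettl7a1 or Alk. Mettl7a1 had 5.83 and 4.47 kb in control 3 and 4 and 7.89 and 4.47 kb in dnTCF4 1 and 3, and Alk had 13.2 and 7.81 kb against 7.39 and 6.52 kb.

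With the 3 longest lists cut to 21492 peaks, an alternative chosen after seeing the data, Frmd5 kept 3 and 5 peaks in control 3 and 4 against 18 in dnTCF4 1. Mettl7a1 had 7, 11 and 18 peaks in that order, Galnt9 2, 0 and 4, Fam210b 1, 0 and 3, and Avp 0, 0 and 2. Alk had 51, 43 and 42 peaks, but they covered 78.3 kb in control 3, 38.7 kb in control 4 and 30.6 kb in dnTCF4 1. With the 5 longest lists, control 3 and 4 and dnTCF4 1, 3 and 4, cut to 1838 peaks, Mettl7a1 and Alk kept control peaks. No control peak remained at Frmd5, Galnt9, Fam210b or Avp. Avp had none in dnTCF4 either, dnTCF4 3 had none at Frmd5, and dnTCF4 1 had none at Fam210b. In this setting 1687 of the 21627 genes had peaks in a higher percent of dnTCF4 than of control libraries. With all 8 lists cut to 191 by −log10 p, Galnt9 had a peak in dnTCF4 2 and Alk in control 3, and the other loci had none. Cut to 191 by fold instead, dnTCF4 4 also had a peak at Galnt9 and control 1 had one at Mettl7a1.

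**Figure D4:**
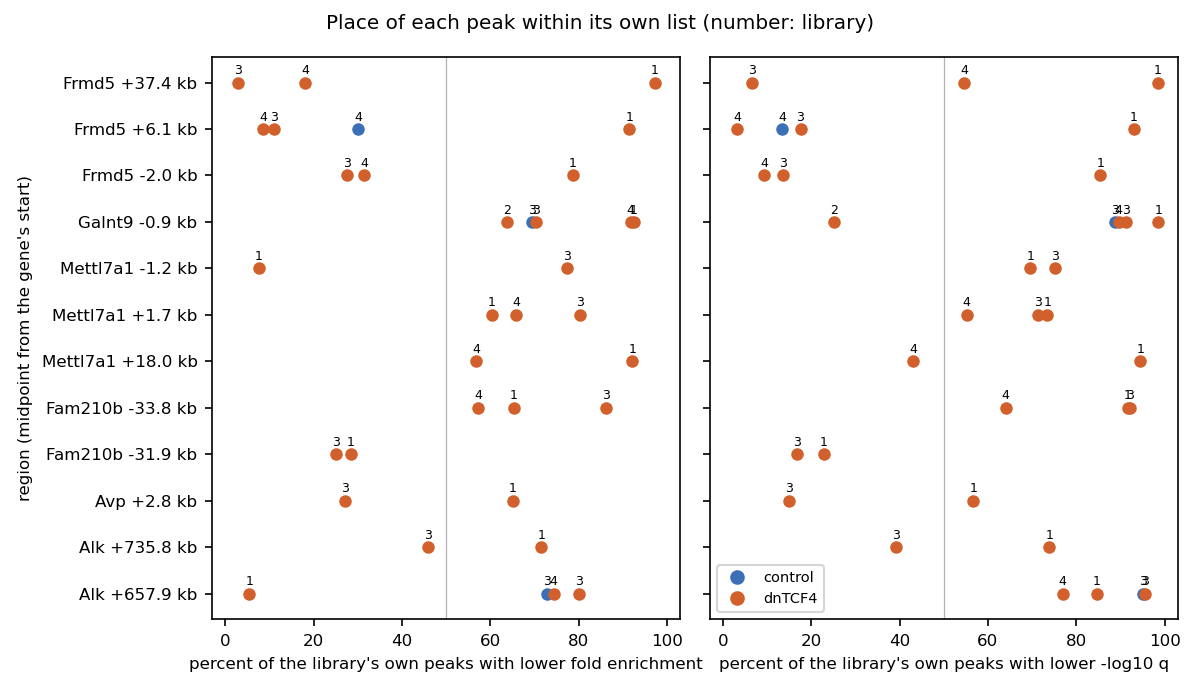
Place of each peak within its own library's list, as the percent of that list's peaks with a lower fold enrichment (left) or a lower −log10 q (right). Shown are the 12 regions of the 6 loci with at least 2 more dnTCF4 than control libraries. Regions that lean to control are not shown. Rows give the region's midpoint from the gene's start, numbers give the library, and colours the group. The Galnt9 peaks sit at 88.7% or above by −log10 q except in dnTCF4 2, and those of Frmd5 spread from 3.26% to 98.5%.

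Within lists, the peaks at these regions, which were picked for their lean to dnTCF4, were of mixed rank. At Frmd5 the peaks of dnTCF4 1 ranked above 85.4% to 98.5% of their list by −log10 q, while those of dnTCF4 3 and 4 ranked above 3.26% to 54.6% of theirs. Ranks of lists of different length show no change between libraries, and they are given to say how near a peak lies to the end of its list. By −log10 q, the peaks of the Fam210b region 33.2 kb from the gene lay in the upper part of every list that held them. Those of the Alk body region did so too, but by fold its peak in dnTCF4 1 was above only 5.40% of that list.

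Regions with such uneven counts were few. Only 0.112% of merged regions had peaks in at least 3 dnTCF4 libraries and fewer than 2 control libraries. Peaks in 3 dnTCF4 and 0 control libraries were found in 9 regions, of which 4 are those of Frmd5, Mettl7a1 and Fam210b above. The protein-coding genes nearest to the others, named after their values were seen, were Slc24a5 at 33.1 kb, Slc17a9 at 15.4 kb, Tbata at 5.25 kb, Disp3 at 19.9 kb and Cep126 at 76.6 kb. The last distance is beyond the 40 kb used for a locus. All 9 regions had their peaks in dnTCF4 1, 3 and 4. The list of dnTCF4 2 holds only 191 peaks and could enter few regions, so nothing is read from this. Peaks in 4 dnTCF4 libraries and 1 control library were found in 3 regions, at Galnt9, in Epcam and near C1qtnf3. The reverse patterns were more frequent, but over all merged regions 78.9% had more control and 8.27% more dnTCF4 libraries. Nothing is therefore read from that order. Peaks in 3 control and 0 dnTCF4 libraries were found in 25 regions (0.0407% of all), against 0.0147% for the 9 above. Those in 4 control libraries and 1 dnTCF4 library were found in 5 (0.00814%), against 0.00488% for the 3 above.

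By whole loci, 4 genes had peaks in 3 more dnTCF4 than control libraries, namely Galnt9, Sgpl1, Tbata and Adamts14. The last 3 share the same short peaks on chromosome 10, with 0.22, 0.195 and 0.175 kb in dnTCF4 1, 3 and 4. Galnt9 was therefore the member with the widest difference in count, and no other whole locus shared its pattern of presence over the 8 libraries. At the scale of single regions the pattern was not its own. The region in Epcam also had peaks in control 3 and dnTCF4 1 to 4.

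Frmd5, Fam210b and Avp lie on chromosome 2, and so do 5 of the 9 regions found in 3 dnTCF4 and 0 control libraries. Chromosome 2 held 6.77%, 9.13%, 13.6% and 15.8% of the covered length of control libraries 1 to 4 and 21.1%, 7.59%, 30.1% and 23.0% of that of dnTCF4 libraries 1 to 4. The 3 dnTCF4 libraries with peaks at Frmd5 and Fam210b are thus those with the highest share on this chromosome. The part of that share in the results at these 3 loci was not tested.

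Related genes are given beside the counts over all genes, of which 11500 had a peak in any library, 1428 with more dnTCF4 libraries and 6790 with more control libraries. Of 18 FERM protein genes, 13 had a peak in any library, and Frmd5 and Frmd4a had more dnTCF4 libraries while 7 had more control libraries and 4 equal numbers. Frmd4a, a scaffold of epithelial polarity, had peaks in the same 5 libraries as Frmd5, but its covered length was highest in control 3 with 17.4 kb against 3.60 kb in dnTCF4 1. Of 19 polypeptide GalNAc-transferase genes, 15 had a peak, and Galnt9 was the only one with more dnTCF4 libraries, beside 9 with more control libraries and 5 equal. In both lists, as over all genes, more members had more control than dnTCF4 libraries. Galnt6 had peaks in all 8 libraries, from 1.15 to 51.9 kb, and Galnt14 in 4 control and 3 dnTCF4 libraries, the latter pattern also that of Alk. Over all genes the median difference in libraries was 0, as in both of these lists.

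The small families hold few genes. Mettl7b had no peak, and Mettl7a2 and Mettl7a3, whose windows overlap that of Mettl7a1, had peaks in 4 control and 3 dnTCF4 libraries each. Fam210a, the partner of Fam210b, had peaks in 2 control libraries and 1 dnTCF4 library. Among the receptors of vasopressin and oxytocin, Avpr1a had a peak in 1 control library, Avpr1b in 2 libraries of each group, Avpr2 in 2 control libraries and 1 dnTCF4 library, and Oxtr in none. Ltk, the receptor closest to Alk, had peaks in 2 control and 3 dnTCF4 libraries, and the ligand genes Alkal1 and Alkal2 had equal numbers in both groups. Ptn, Mdk and Ptprz1 had none. Ccn6 itself had peaks in control 3 and control 4, with 2.27 and 0.489 kb, and Ezh2 in control 3 alone.

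Genes whose covered length was most like each member's were sought among those with a peak in the same libraries. The measure was the Euclidean distance of log2(1 + covered kb) over the 8 libraries. Genes whose window overlaps the member's were left out of the counts and the ranking. This leaves out Oxt, whose covered lengths equal those of Avp, and Mettl7a2 and Mettl7a3, which share the pattern of Mettl7a1. Frmd5 shared its presence pattern with 800 other genes, and the nearest were Tmprss12 at a distance of 1.13, Ogfr at 1.29 and Ythdf1 at 1.35. Tmprss12 lies at the Mettl7a1 locus, and its own extended window had 10.0 kb in dnTCF4 1 against 6.07 kb in control 3. That window takes in the Mettl7a1 gene, so it repeats the peaks near the Mettl7a1 start. Mettl7a1 shared its pattern with 145 genes, led by Gsx2 at 0.679, Fmn1 at 0.703 and Pes1 at 0.926. Fam210b shared it with 8, led by Scara5, Gtdc1 and Atp2c2, and Avp with 18, led by Fbln7, Cbs and Cryaa. Alk shared it with 148, led by Fer1l6 at 0.596, Ikzf3 at 1.37 and Fkbp6 at 1.61. Galnt9, with no gene of the same pattern, has no such neighbour.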

How the data were processed

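H3K27me3 was profiled in 4 control and 4 dnTCF4 libraries. The submitters' processing notes name build mm10, the peak caller MACS2 2.1.2, the aligner Bowtie2 2.3.4.1, and Trim Galore. Options of these tools, and whether IgG entered peak calling, are not stated there. The authors deposited 1 list per library with 9 columns and no header, read as a score, a fold enrichment (ratio), a −log10 p and a −log10 q per peak. The deposited score was not used in any result.

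Peaks were intersected with gene bodies of RefSeq GRCm38.p6, extended by 40 kb, with Python 3.11.15, pandas 2.3.3 and numpy 2.4.6. Covered length is the sum of peak bases in a locus, and regions are overlapping peaks of all libraries merged. The overlap counting was tested on simulated data. No count test and no test between groups was made. Depth is unknown. The members and gene lists were chosen with earlier results of these data known. Genes named are the members, protein-coding genes within their loci, and the family lists. Up to 3 genes with the nearest covered lengths, from outside each member's locus, are also named. A few others are named where the text says so. There were 18 alternatives, covering the extension, the peak threshold, the overlap, list length and each library left out.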

Additional observations from a re-analysis of the deposited data

Results flagged for a closer look

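In 4 groups of 4 libraries, a single library stood apart from the others in covered length at a member locus. At Frmd5, dnTCF4 1 had 21.1 kb and the next dnTCF4 library 2.29 kb. At Galnt9, control 3 had 2.12 kb where the other controls had none, and dnTCF4 1 had 1.82 kb where the next dnTCF4 library had 0.457 kb. At Fam210b, control 3 had 1.29 kb where the other controls had none. In each case the library is the one with the longest peak list of its group. Dixon's rule flags about 1 in 20 groups by chance, but the control groups of Galnt9 and Fam210b have 3 libraries at 0, where any single peak is flagged and that rate does not apply. A mean over a group with such a library describes mainly that library.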

How the results depend on the processing

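Of 18 alternatives, 1, with the 3 longest lists, was chosen after seeing the data. No paired analysis was possible because the values come from no test, and the labels do not say whether equal numbers tie libraries together. Expressed as the percent of dnTCF4 minus the percent of control libraries with a peak, Alk turned from -25.0 to 25.0 points with the gene body alone. Mettl7a1 turned from -25.0 to 25.0 with the gene body alone and with 10 kb, and to 50 with the 5 longest lists. With a −log10 q of at least 2 it moved further toward control, to -50.0. The difference at Alk fell to 0 with a −log10 q of at least 2 and with the 3, 4 or 5 longest lists. That at Mettl7a1 fell to 0 with 100 kb, with the 3 or 4 longest lists and with 8 lists cut by −log10 p. Both fell to 0 without dnTCF4 2. Frmd5, Galnt9, Fam210b and Avp turned under none of the 18, but some lost their difference, to 0. Avp lost it with a −log10 q of at least 2, with the 5 longest lists and with 8 lists cut either way. Fam210b lost it with the gene body alone, with 10 kb and with 8 lists cut either way, and Frmd5 with the 3 longest lists and with 8 lists cut either way. The number of members with more dnTCF4 libraries was 4 as reported and 4 with any library left out. With the gene body alone it was 5, and with a −log10 q of at least 2 or the 3 longest lists it was 3. With all 8 lists cut by −log10 p or by fold it was 1. The number of genes with more dnTCF4 libraries was 1428 as reported, 411 with the gene body alone, 799 with 10 kb, 855 with a −log10 q of at least 2, 392 and 533 with 8 lists cut by −log10 p and by fold, and 2244 with the 3 longest lists. Leaving out a library gave 1136 (without dnTCF4 1) to 4602 (without dnTCF4 2) genes. It was 4568 without control 3, 3370 without control 4, 2874 without dnTCF4 3 and 4020 without dnTCF4 4. With unequal group sizes the percent of libraries moves for any gene, so these last counts are not like for like. Read depth limits every absence of a peak.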
